A study of Mus musculus with 4 samples.

Results

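The endoplasmic reticulum (ER) stress genes described here are 10 of the 22913 genes for which FPKM were deposited. They were chosen by symbol as well-known genes of the unfolded protein response (UPR), with earlier results of these data known. They are Hspa5, Hsp90b1, Calr, Pdia4, Sdf2l1, Xbp1, Atf4, Ddit3, Herpud1 and Dnajb9. All 10 were found, and all 10 were among the 14203 genes that reached an FPKM of 1 in any library, called the genes tested from here on. RNA was sequenced from dermal white adipose tissue (dWAT), the fat layer around the lower ends of hair follicles (HFs), microdissected from the skin of C57BL/6 mice. The groups were OTD and YTD, dWAT of old and of young mice in telogen, the resting phase of the hair cycle, and OAD and YAD, dWAT of old and of young mice in anagen, the growth phase, which was induced by depilation. Old mice were 18 months and young mice 2 months old in the treatment protocol and the methods, whereas the age entries of the single samples have YTD at 18 months and OAD at 2 months. Each group had 1 library, and the methods give 20 mice per group without saying how their tissue was combined. The depth, estimated from the smallest values within a range of depths set beforehand, was roughly 17400000 to 24300000 fragments per library. No spread between replicates is known, no test could be made, and each difference is one between single libraries.

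Secreted and membrane proteins fold in the ER with the help of chaperones such as BiP, the product of Hspa5. When unfolded proteins accumulate, the sensors IRE1, PERK and ATF6 start the UPR. IRE1 splices the Xbp1 messenger RNA, PERK favours translation of Atf4, and ATF6 is cut to release a transcription factor. Together they raise the production of chaperones, of enzymes that degrade misfolded proteins and, under lasting stress, of CHOP, the product of Ddit3. Cells that secrete much protein, adipocytes among them, need this system also without overt stress. FPKM of a whole gene cannot separate spliced from unspliced Xbp1, and neither translation nor cleavage is visible in these values.

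Many chaperone promoters hold the ER stress response element, in which CCAAT and CCACG stand 9 bases apart and which ATF6 and XBP1 bind with NF-Y. A shorter form has ATTGG and CCACG 1 base apart. Both forms, and TGATGCAA, an element bound by ATF4 with C/EBP proteins, were searched on both strands of RefSeq promoters of GRCm38.p6, from 250 bases before to 50 bases after each start. The forms were chosen for the search after the values had been seen. The longer form was found in 39 of 32851 promoters (0.119%), among them those of Hspa5, Calr and Hsp90b1, the last with 2 copies. The shorter form was found in 12 promoters (0.0365%), among them that of Herpud1, and TGATGCAA in 294 (0.895%), also with Herpud1 among them. All 10 genes had a promoter in the table, and none of the 3 patterns was found in the windows of Pdia4, Sdf2l1, Xbp1, Atf4, Ddit3 and Dnajb9. The stretches below are shown because the chaperones that carry the longer form and Herpud1, which carries the shorter one, differed in direction between anagen and telogen. They read 5′ to 3′ on the strand of the gene, with the 2 blocks of the element in capitals. An element on the opposite strand appears as CGTGG followed by ATTGG. They lie at chr2:34772000-34772068 (+) for Hspa5, chr8:84847050-84847118 (-) for Calr, chr10:86705613-86705681 (-) and chr10:86705508-86705576 (-) for the distal and the proximal copy of Hsp90b1, and chr8:94386352-94386412 (+) for Herpud1.
Hspa5: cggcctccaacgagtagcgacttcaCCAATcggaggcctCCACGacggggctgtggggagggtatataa
Calr: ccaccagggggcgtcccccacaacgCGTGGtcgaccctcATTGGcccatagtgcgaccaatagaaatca
Hsp90b1, distal: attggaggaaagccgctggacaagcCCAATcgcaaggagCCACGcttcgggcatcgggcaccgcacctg
Hsp90b1, proximal: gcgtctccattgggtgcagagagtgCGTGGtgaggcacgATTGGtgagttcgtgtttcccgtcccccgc
Herpud1: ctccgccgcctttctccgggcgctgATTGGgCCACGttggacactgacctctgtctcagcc

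Counted from the RefSeq start, the elements span bases -65 to -47 in Hspa5, -162 to -144 in Calr, -212 to -194 and -107 to -89 in Hsp90b1, and -52 to -42 in Herpud1. RefSeq starts can differ from the gene ends that were deposited. The TGATGCAA match of Herpud1 lies apart from its element, at -112 to -105. A match is a description of letters and not a bound site.

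In these data the 10 genes did not move as a block. Hspa5, Hsp90b1, Calr, Pdia4 and Sdf2l1 encode chaperones and folding proteins of the ER lumen and are called the 5 chaperones below. They were between 2.52 and 4.48 times as high in anagen as in telogen dWAT at both ages. Herpud1 and Dnajb9 were lower in anagen at both ages. Dnajb9 is also counted among the ER chaperones and co-chaperones, so the higher level in anagen was not shared by all of these. Xbp1 and Atf4 were within 1.5-fold in each comparison, and no gene of the 10 differed 2-fold between old and young dWAT in either phase. In bulk tissue, fewer cells of a type and less RNA per cell cannot be told apart.

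Hspa5 (ENSMUSG00000026864; GRCm38, chromosome 2, 34771970 to 34777547) encodes BiP, the main Hsp70 chaperone of the ER, which also keeps the UPR sensors inactive. Its level was 67.5 FPKM in YTD and 71.4 in OTD, and 205 in YAD and 236 in OAD. Both anagen libraries were far above both telogen libraries, and within a phase old and young lay close together. The change, given throughout as the difference of log2(FPKM + 1), was 1.59 from YTD to YAD and 1.71 from OTD to OAD, against 0.08 between OTD and YTD and 0.20 between OAD and YAD.

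Hsp90b1 (ENSMUSG00000020048; chromosome 10, 86690840 to 86705509) encodes GRP94, the Hsp90 chaperone of the ER. It was measured at 50.6 FPKM in YTD and 51.5 in OTD, and 133 in YAD and 135 in OAD. Its age differences were 0.02 in telogen and 0.03 in anagen, beside phase changes of 1.37 in young and 1.38 in old mice.

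Calr (ENSMUSG00000003814; chromosome 8, 84841850 to 84846934) encodes calreticulin, a calcium-binding chaperone for glycoproteins. It had 96.6 FPKM in YTD and 81.0 in OTD, and 245 in YAD and 244 in OAD, and was the highest of the 10 genes in both anagen libraries. In telogen it was lower in old dWAT (-0.25), and in anagen the ages were nearly equal (-0.01). The phase changes were 1.33 in young and 1.58 in old mice.

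Pdia4 (ENSMUSG00000025823; chromosome 6, 47796142 to 47813512) encodes ERp72, an enzyme that forms and rearranges disulphide bonds. It stood at 10.4 FPKM in YTD and 13.2 in OTD, and 46.4 in YAD and 41.4 in OAD. The old library was the higher one in telogen and the lower one in anagen, by 0.31 and -0.16. Its phase change was 2.05 in young and 1.58 in old mice.

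Sdf2l1 (ENSMUSG00000022769; chromosome 16, 17130138 to 17132383) encodes a cofactor of BiP and its J-domain partners. It was the lowest of the 10 genes in both telogen libraries, at 7.92 FPKM in OTD and 5.17 in YTD, and reached 19.97 in OAD and 23.2 in YAD. Like Pdia4, it was higher in old than in young dWAT in telogen (0.53) and lower in anagen (-0.21), so its phase change was 1.97 in young and 1.23 in old mice. These levels correspond to only about 105 fragments in OTD and 64 in YTD at the estimated depth. The ratio of the FPKM of OTD to YTD was 1.53, with an exact 95% interval of 1.12 to 2.14 for counting error only.

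**Figure D1:**
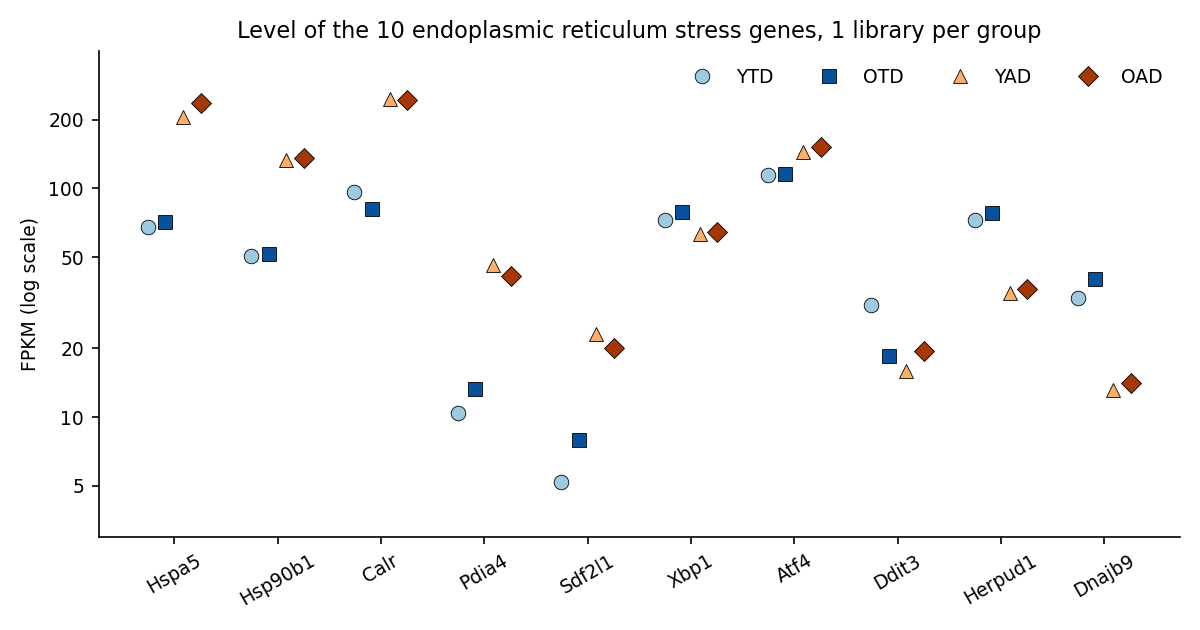
FPKM of the 10 genes on a log scale, with 1 point for each of the libraries YTD, OTD, YAD and OAD and no error bars because each group had 1 library. Hspa5, Hsp90b1, Calr, Pdia4 and Sdf2l1 lie higher in both anagen libraries than in both telogen libraries, Herpud1 and Dnajb9 lie lower, and the YTD point of Ddit3 (31.0 FPKM) stands above its other 3 points (15.8 to 19.4).

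The 3 transcription factors behaved differently from the chaperones. Xbp1 (ENSMUSG00000020484; chromosome 11, 5520659 to 5525893), the target of IRE1 and itself an activator of ER genes, had 72.5 FPKM in YTD and 78.8 in OTD, and 63.3 in YAD and 64.6 in OAD. It varied least of the 10 genes, by 1.24-fold between its highest and lowest library. It was slightly lower in anagen, by -0.19 in young and -0.28 in old mice, a direction that turned when the values were rescaled to TPM (0.64 and 0.33).

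Atf4 (ENSMUSG00000042406; chromosome 15, 80255184 to 80257540), the effector of the PERK branch and of amino acid shortage, was the highest of the 10 genes in telogen. It had 114 FPKM in YTD and 116 in OTD, and 144 in YAD and 152 in OAD. Both anagen libraries were above both telogen libraries, by 0.33 in young and 0.39 in old mice, and the ages differed by 0.02 in telogen and 0.08 in anagen.

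Ddit3 (ENSMUSG00000025408; chromosome 10, 127290774 to 127296288) encodes CHOP, which favours cell death under lasting ER stress and hinders adipocyte differentiation. It had 31.0 FPKM in YTD and 18.5 in OTD, and 15.8 in YAD and 19.4 in OAD, so YTD stood above the other libraries. On the log2(FPKM + 1) scale it was the one gene of the 10 that differed by more than 1.5-fold with age, and it was lower in OTD than in YTD (-0.71). In anagen it was higher in old dWAT (0.28). From telogen to anagen it was lower in young mice (-0.93) and near equal in old mice (0.07). Both values depended on the scaling and were -0.12 and 0.65 on the TPM scale. About 186 fragments in OTD and 293 in YTD stand behind the telogen values. The ratio of OTD to YTD was 0.597, with an exact 95% interval of 0.494 to 0.719 for counting error only, whereas the interval of OAD to YAD, 0.988 to 1.52, includes equal levels. The ratio of Ddit3 to Atf4 within a library was 0.271 in YTD and 0.160 in OTD, and 0.110 in YAD and 0.127 in OAD, so it too was highest in YTD.

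The 2 remaining genes act on misfolded proteins and went the other way from the lumenal chaperones. Herpud1 (ENSMUSG00000031770; chromosome 8, 94386438 to 94395377) encodes HERP, a membrane protein of ER-associated degradation. It had 72.8 FPKM in YTD and 77.7 in OTD, and 34.9 in YAD and 36.4 in OAD. Both anagen libraries held less than both telogen libraries, with changes of -1.04 in young and -1.07 in old mice. The ages differed by 0.09 in telogen and 0.06 in anagen.

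Dnajb9 (ENSMUSG00000014905; chromosome 12, 44205897 to 44210068) encodes ERdj4, a J-domain partner of BiP that hands over misfolded proteins and holds back IRE1. It had 33.2 FPKM in YTD and 40.3 in OTD, and 13.2 in YAD and 14.1 in OAD. It had the most negative changes from telogen to anagen of the 10 genes, -1.27 in young and -1.45 in old mice, and was slightly higher in the old library in both phases (0.27 and 0.10).

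Ratios within a library do not depend on how libraries were scaled to each other, and they showed the same split. Hspa5 and Herpud1 had nearly equal FPKM in telogen, with ratios of 0.919 in OTD and 0.928 in YTD, whereas in anagen the ratio was 6.49 in OAD and 5.88 in YAD. The ratio of Hspa5 to Dnajb9 was 2.03 in YTD and 1.77 in OTD, and 15.6 in YAD and 16.7 in OAD. Among genes of like direction the ratios moved little. That of Hspa5 to Hsp90b1 stayed between 1.33 and 1.75, and that of Herpud1 to Dnajb9 between 1.92 and 2.65.

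Old and young dWAT were compared first. In telogen OTD exceeded YTD for 8 of the 10 genes and lay below it for 2, where 43.3% of all genes tested were higher, with a median change of 0.09, beside -0.06 over all genes tested. None reached a change of 1 in size, which 2.02% of the genes tested did upward and 2.34% downward. At 1.5-fold, taken on the log2(FPKM + 1) scale, no member was higher (background 7.80%) and Ddit3 was lower (background 10.9%). In anagen OAD exceeded YAD for 7 genes and lay below it for 3, where 50.02% of all genes tested were higher, with a median change of 0.05 and a median size of 0.09, beside 0.15 for the size over all genes. On the TPM scale all of the 10 except Ddit3 were lower in OAD than in YAD, with a median of -0.18. No gene reached 1 in either direction (background 0.901% higher and 0.563% lower) or 1.5-fold (3.50% higher and 2.27% lower). A share of 0 or 1 in 10 is near these backgrounds.

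The comparison of anagen with telogen gave a different picture. In young mice 5 of the 10 genes were at least 1 higher in YAD than in YTD and 2 at least 1 lower, where 19.9% of the genes tested were higher and 20.7% lower. In old mice the counts were again 5 higher and 2 lower, where 20.1% of the genes tested were higher and 19.4% lower. The upper count was thus above the background share in both ages and the lower count near it. The median change of the 10 genes was 0.83 in young and 0.81 in old mice, beside 0.01 and 0.05 over all genes tested. The young and the old comparison share no library, and the 5 genes past 1 upward and the 2 past 1 downward were the same in both. How many of all genes tested passed 1 in the same direction at both ages was not counted, so this overlap has no background.

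**Figure D2:**
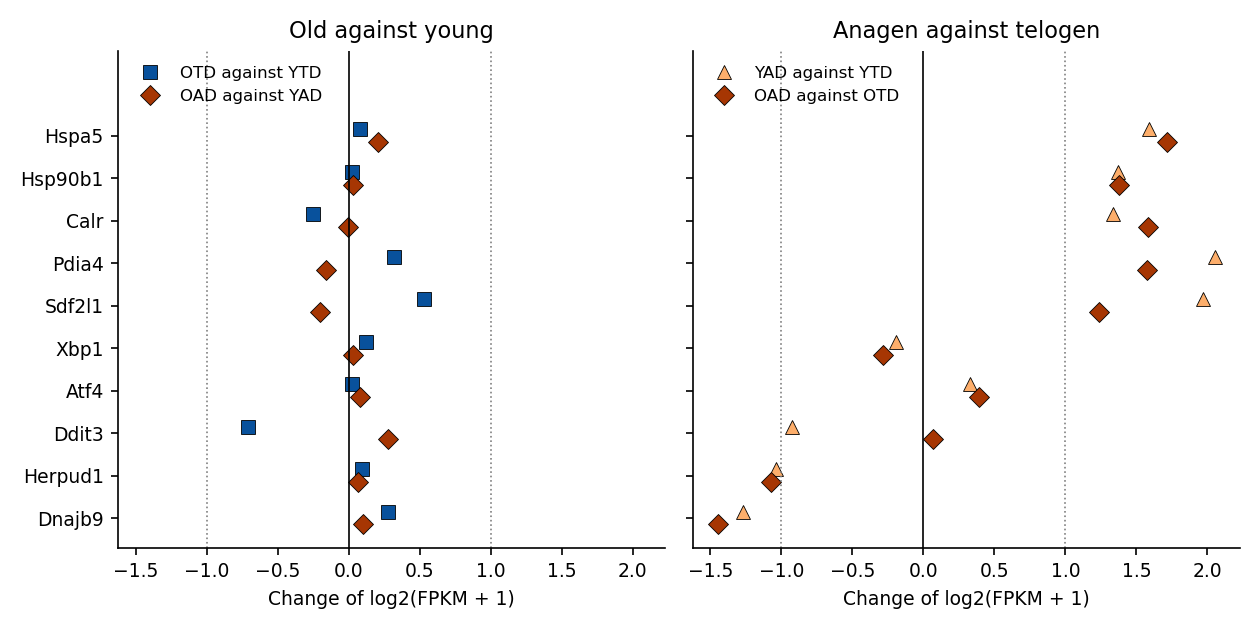
Change of log2(FPKM + 1) of each gene, on the left for old against young dWAT in telogen and in anagen, on the right for anagen against telogen in young and in old mice; dotted lines mark a change of 1 in size. On the left all points lie between -0.71 (Ddit3, telogen) and 0.53 (Sdf2l1, telogen), and on the right 5 genes lie above 1 and 2 below -1 at both ages.

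The phase comparison depends on the scaling as well. Genes encoded in the mitochondrial genome took 44.7% of the summed FPKM in YTD and 52.7% in OTD, and 14.4% in YAD and 18.3% in OAD. When FPKM were rescaled to TPM, so that each library had the same sum, the median of all genes moved to 0.73 in young and 0.56 in old mice, and 41% of the genes tested were higher and 8.97% lower in young mice (34.5% and 10.6% in old). On that scale 6 of the 10 genes, the 5 chaperones and Atf4, were at least 1 higher and none at least 1 lower at either age. Relative to the median of all genes, 5 were higher and 1 lower in young mice, and 5 higher and 2 lower in old mice. The 5 chaperones were higher, and Herpud1 and Dnajb9 lower, in anagen at both ages under each of 9 ways of scaling and filtering. The filters left the value of each gene as it was, and a pseudocount cannot turn its direction. Only the median-of-ratios and TPM settings could have turned it. The size of the lower level varied with the scaling. For Herpud1 it lay between -1.06 and -0.21 in young and between -1.25 and -0.47 in old mice, and for Dnajb9 between -1.34 and -0.47 and between -1.64 and -0.86.

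**Figure D3:**
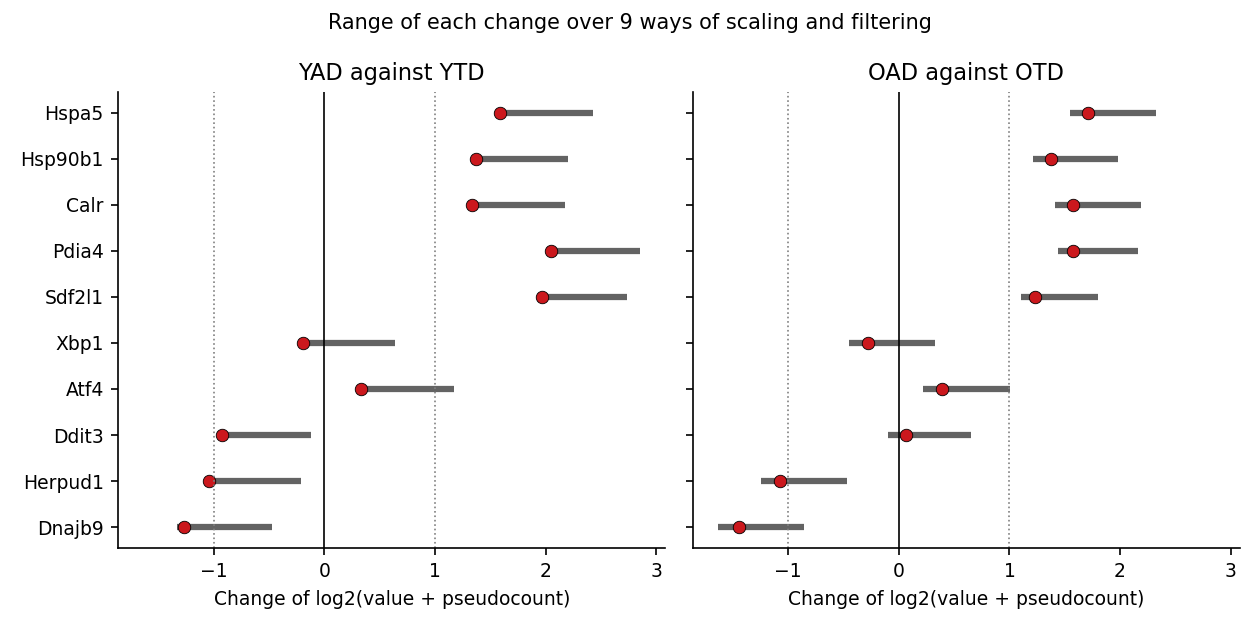
Change of each gene from telogen to anagen in young (left) and old (right) mice, with the value as reported (point) and the range over 9 ways of scaling and filtering (bar). The bars of the 5 chaperones stay above 1, those of Herpud1 and Dnajb9 stay below 0 but cross -1, and those of Xbp1 at both ages and of Ddit3 in old mice cross 0.

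Of the sensors of the UPR, Atf6b, a relative of ATF6, differed most between the phases, with 7.37 FPKM in YTD and 7.80 in OTD, and 45.8 in YAD and 39.1 in OAD, or changes of 2.48 in young and 2.19 in old mice. Atf6 lay between 6.54 and 8.45 FPKM, Ern1, the gene of IRE1, between 3.45 and 5.73, and Eif2ak3, the gene of PERK, between 3.06 and 4.39 over the libraries, and none of these 3 differed by 1 in any comparison. Ern2, the IRE1 form of gut and airway epithelium, was at 0 in all libraries, where 3 fragments would give 0.0452 to 0.0630 FPKM.

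Among other ER chaperones and co-chaperones, 4 of 15 were at least 1 higher in young anagen and 3 of 15 in old anagen, none was 1 lower, and the medians were 0.25 and 0.30. Hyou1, a large chaperone that acts as exchange factor for BiP, went from 7.05 FPKM in YTD to 34.0 in YAD and from 5.77 in OTD to 27.2 in OAD, the largest change of this list at both ages (2.12 and 2.06). Creld2, a secreted ER stress protein, had 12.4 in YTD, 38.5 in YAD, 10.03 in OTD and 36.1 in OAD. Collagen chaperone Serpinh1 was lower in anagen by -0.35 in young and -0.42 in old mice, and the BiP partner Dnajc10 by -0.33 and -0.64.

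Disulphide isomerases and oxidases had the highest median of the 6 ER and UPR lists, counted without the 10 genes, 1.06 in young and 0.91 in old anagen. Without Pdia4, 6 of 11 were at least 1 higher and none lower in young mice, and 5 higher and 1 lower in old mice. The background was 19.9% higher and 20.7% lower in young mice, and 20.1% and 19.4% in old mice. Ero1l, the oxidase that recharges the isomerases, had 7.39 FPKM in YTD, 26.3 in YAD, 6.89 in OTD and 38.6 in OAD. Erp29, a folding factor of secreted proteins, had 36.2, 76.6, 28.5 and 90.3 in the same order. Pdia5 was the one that went the other way past 1, from 11.7 in OTD to 4.03 in OAD, and its change in young mice was -0.63. Erp44, which retains proteins in the early secretory pathway, was lower by -0.28 and -0.14.

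ER-associated degradation did not follow one direction. Without Herpud1, 3 of 20 genes were at least 1 higher and 3 lower in young anagen, and 3 higher and none lower in old anagen. The medians were -0.12 and 0.10. Each of these shares was below the background, 19.9% higher and 20.7% lower in young anagen and 20.1% and 19.4% in old anagen. Syvn1, the ubiquitin ligase HRD1, was higher in anagen (1.24 in young and 1.66 in old mice), as was Faf2, which recruits the extraction machinery (1.30 and 1.16). Ube2g2, a ubiquitin-conjugating enzyme, was lower (-1.35 and -0.50), as was the lectin Erlec1 (-1.12 and -0.83).

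Genes of translocation and traffic, many of them regarded as XBP1 targets, were spread about 0. Of 29 without Xbp1, 4 were at least 1 higher and 3 lower in young anagen, and 3 higher and 2 lower in old anagen. The medians were 0.30 and 0.19. Each share was below the background, 19.9% higher and 20.7% lower in young anagen and 20.1% and 19.4% in old anagen. Sec61a1, the pore of the translocon, was higher (1.44 in young and 1.17 in old mice), and so was the vesicle coat gene Sec23b (1.20 and 1.06). Srpr, the receptor of the signal recognition particle, was lower (-1.53 and -0.99), and so were the cargo receptor Lman1 (-1.29 and -1.03) and the coat gene Sec24d (-0.49 and -1.04).

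The list of the ATF4 and CHOP branch holds 24 genes beside Atf4 and Ddit3. Of these, 10 were at least 1 higher and 2 lower in young anagen and 9 higher and 3 lower in old anagen. The medians were 0.70 and 0.56. The background was 19.9% higher and 20.7% lower in young anagen, and 20.1% and 19.4% in old anagen. The amino acid transporter gene Slc7a5 had 3.11 FPKM in YTD, 50.3 in YAD, 3.20 in OTD and 41.6 in OAD, and Aldh18a1, of proline synthesis, had 2.62, 18.9, 2.21 and 15.4. Vldlr, a lipoprotein receptor, was lower (-2.08 in young and -1.61 in old mice).

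Atf3, a stress-induced transcription factor and the gene of this list with the largest age differences, had 11.2 FPKM in YTD and 41.6 in OTD, and 2.60 in YAD and 8.47 in OAD. It was higher in old than in young dWAT in both phases (1.81 and 1.40), whereas Ddit3 was lower in OTD than YTD. Cebpb, a C/EBP factor of adipocyte differentiation, was 0.82 higher in OAD than in YAD. In telogen the 22 immediate early genes, which respond within minutes to many kinds of stimuli, were all higher in OTD than in YTD. Of all genes tested, 43.3% were higher. The median of the 22 was 1.32, and 18 of them were at least 1 higher, beside 2.02% of all genes tested. In anagen the median was 0.31, and 1 of the 22 was at least 1 higher, beside 0.901% of all genes tested. The part of the immediate early genes in the age values of Atf3 and Ddit3 was not tested.

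These 6 ER and UPR lists hold 103 genes tested without the 10 genes. In young anagen 28 (27.2%) were at least 1 higher and 8 (7.77%) lower, beside 19.9% and 20.7% of all genes tested. In old anagen 24 (23.3%) were higher and 6 (5.83%) lower, beside 20.1% and 19.4%. With age, 1 of the 103 was at least 1 higher in telogen and 1 in anagen, in each case Atf3, and none was lower. Of all genes tested, 2.02% were at least 1 higher in telogen and 0.901% in anagen. Chaperones of other compartments were counted beside them. Of 15 cytosolic heat shock genes, 5 were higher and 3 lower in young anagen and 2 higher and 1 lower in old anagen, with the small heat shock gene Cryab, which is abundant in muscle, lowest (-3.30 and -1.78), Hspa1b highest (3.06 and 1.43) and Hsp90aa1 next (1.72 and 1.29). Hspa1a and Hspa1b, whose coding sequences are nearly identical so that reads may be split between them, were 1.68 and 1.65 higher in OTD than in YTD. The list as a whole did not follow them. In OTD 9 of the 15 genes were lower and 6 higher than in YTD, with a median of -0.19, and Cryab was lowest (-0.90). Of 9 mitochondrial chaperones and proteases none differed by 1 in any of the 4 comparisons, with phase medians of -0.25 and -0.03.

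**Figure D4:**
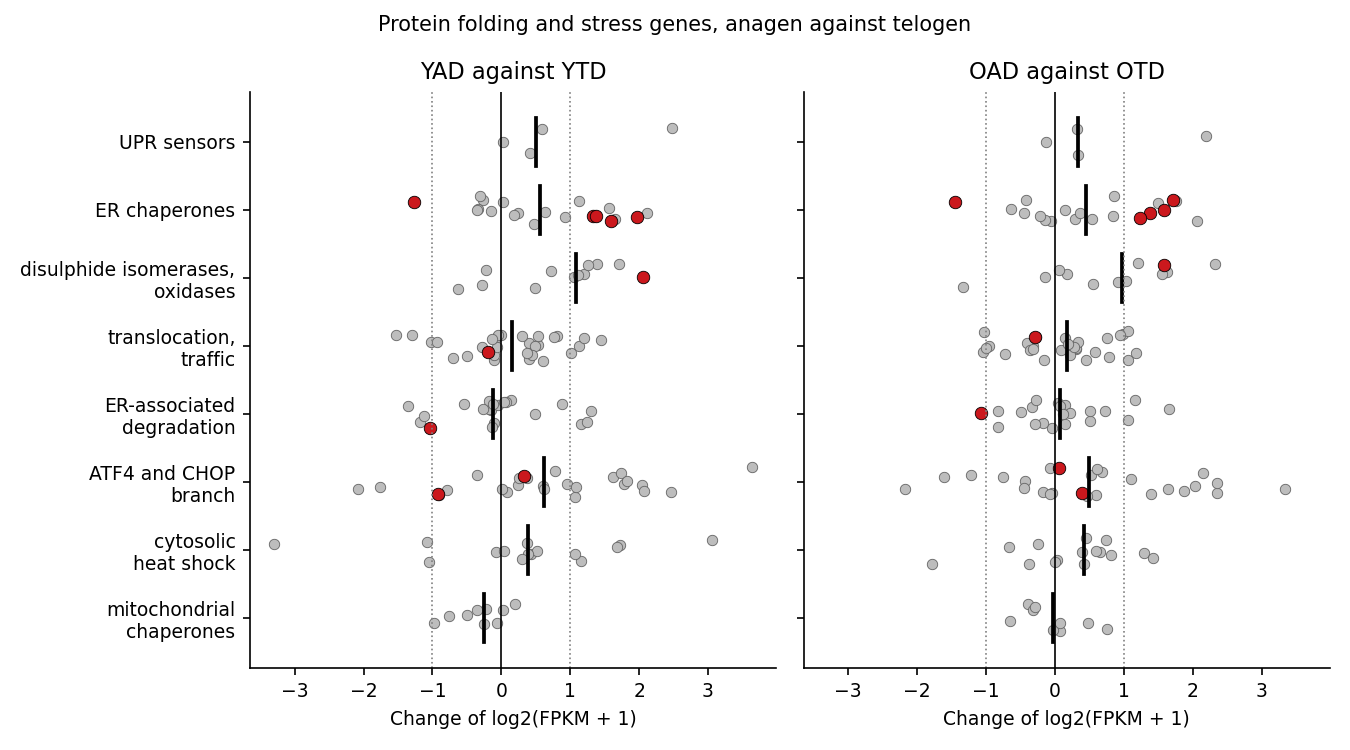
Change of log2(FPKM + 1) from telogen to anagen of each gene tested in 8 lists, in young (left) and old (right) mice; red points are members of the 10, grey points the other genes, black bars the median of each list with its members, and dotted lines a change of 1 in size. Disulphide isomerases and oxidases have the highest medians of the 8 lists, and ER-associated degradation and mitochondrial chaperones lie about 0.

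The genes with the longer promoter element were compared in the same way. Of the 37 symbols with it, 17 were among the genes tested, 3 of them members of the 10. Of the other 14, 6 were at least 1 higher and 1 lower in young anagen, and 6 higher and 2 lower in old anagen, with medians of 0.70 and 0.86. Of all genes tested that had a promoter in the table, 19.4% were at least 1 higher and 19.6% lower in young anagen and 19.7% higher and 18.5% lower in old anagen, with medians of 0.03 and 0.06. Canx, Creld2, Derl3, Dnajc3, Pdia6 and Syvn1 carry the element as well, and of these Creld2, Pdia6 (1.21 and 1.20) and Syvn1 were past 1 at both ages, while Canx (0.64 and 0.53), Derl3 (0.14 and 0.73) and Dnajc3 (0.19 and -0.15) were not. Of the 7 genes tested other than Herpud1 with the shorter element, none differed by 1 between the phases. Pdia4 and Sdf2l1, whose windows hold none of the 3 patterns, had the largest phase changes of the 10 genes in young mice.

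By the distance between log2 profiles over the 4 libraries, the genes most like Hspa5 among 6549 genes with a mean FPKM of at least 10 were Tspan6 (0.0189), Rhog (0.0547), Numb (0.0709), Lmbr1l (0.0764) and Eftud2 (0.0836), none of which is on an ER list. Among the ER genes the nearest was Manf, an ER-resident secreted factor, at rank 23 with 0.161, and Hsp90b1 and Calr ranked 110 and 149. For Ddit3 the nearest were Cuta (0.0719), U2af1l4 (0.0763), Bpgm (0.0947), Tuba4a (0.0949) and Ttc7b (0.105), each with its highest value in YTD. With 4 libraries 376 genes lay within 0.5 of Hspa5 and 826 within 0.5 of Ddit3, so such likeness is common.

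Markers of cell types moved between the same libraries. The summed FPKM of 10 adipocyte markers was 6660 in YTD and 7973 in OTD, and 1921 in YAD and 2755 in OAD, and none was at 0, so markers of the labelled tissue were present in each library. Fibroblast markers (8 of 8 measured) summed to 1123 to 1564 in telogen and 205 to 417 in anagen, macrophage markers (8 of 8) to 495 to 814 and 102 to 129, endothelial markers (6 of 6) to 208 to 354 and 55.3 to 76.1, and skeletal muscle markers (10 of 10) to 64768 to 100208 and 11200 to 15224. In the other direction, 10 of 11 hair shaft and matrix markers summed to 31.9 to 91.3 in telogen and 10229 to 10439 in anagen, 7 of 8 epidermis markers to 52.3 to 78.5 and 932 to 1371, with Krt1 at 0 in 1 library, 6 melanocyte markers to 12.3 to 14.5 and 448 to 736, and 6 sebaceous gland markers to 2.77 to 3.90 and 43.2 to 66.7, with Awat1 and Scd3 at 0 in a library.

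Each of these lists moved with the phase, as the 5 chaperones, Herpud1 and Dnajb9 did, and their part in those differences was not tested. Of plasma cells, which have a very active UPR, 4 of 8 markers were measured and none was at 0. Their sum was 19.2 in YTD and 21.4 in OTD, and 168 in YAD and 196 in OAD, and most of it was Sdc1, which epithelial cells express too, with 17.8 FPKM in YTD and 18.2 in OTD, and 168 in YAD and 196 in OAD. Jchain was at 0.5003 FPKM in YTD and 1.17 in OTD, and 0.261 in YAD and 0.312 in OAD.

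**Figure D5:**
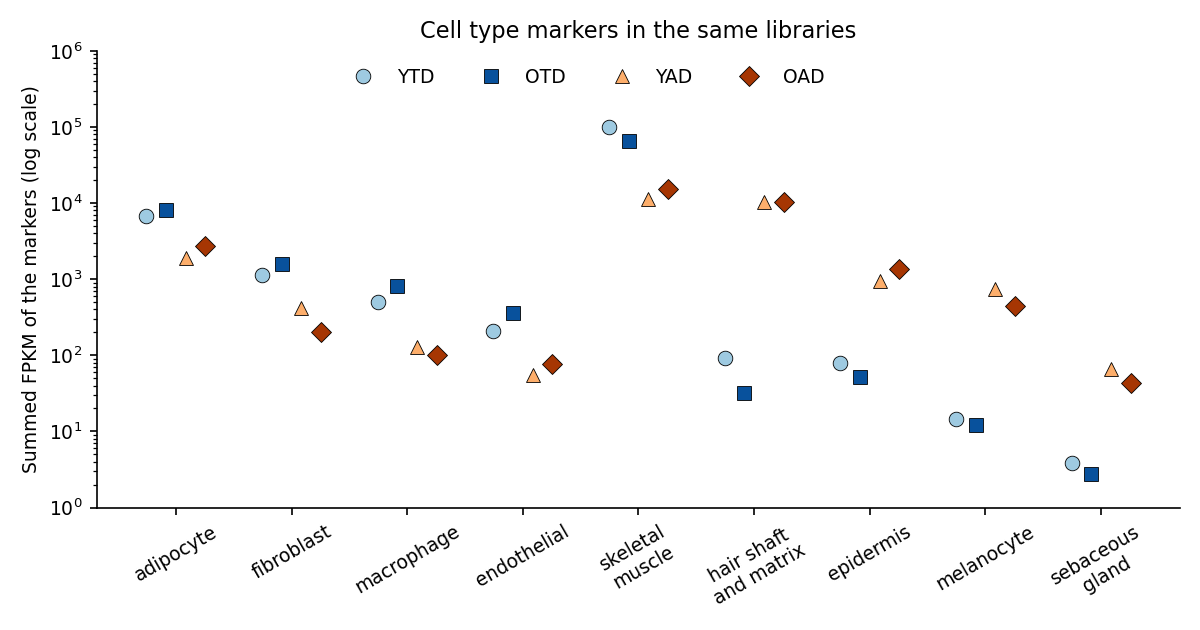
Summed FPKM of the markers of 9 cell types in each library, on a log scale. Adipocyte, fibroblast, macrophage, endothelial and skeletal muscle markers are lower in both anagen libraries than in both telogen libraries, and hair shaft and matrix, epidermis, melanocyte and sebaceous gland markers are higher.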

How the data were processed

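RNA of dWAT from 4 groups (OTD, YTD, OAD, YAD; 1 library each, 20 mice per group) had an integrity number over 7.5 and was sequenced by Illumina HiSeq. The authors deposited FPKM per gene with GRCm38 positions and lengths, 97.0% of which are multiples of 3, like coding lengths. The submitters' processing notes name bcl2fastq and TopHat2. The counting tool, annotation and scaling are not given in the sources used here.

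FPKM were used as deposited. Of 22166 Ensembl identifiers 21750 were matched to a symbol. A change is the difference of log2(FPKM + 1), which understates changes of low genes. Genes tested had an FPKM of at least 1 in at least 1 library, and thresholds were a change of 1 and 1.5-fold. Depth was estimated from the smallest values of FPKM times length and is rough (17400000 to 24300000 fragments per library). It was searched within a range of depths set beforehand and could not fall outside it. Fragment numbers and intervals rest on this estimate. Intervals are exact binomial (Clopper-Pearson) ratios of estimated fragments and cover counting error only. With 1 library per group no test was made and no p-value is given.

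The 10 members and all lists were chosen with earlier results of these data known. The text names the 10 members, all UPR sensors, of each further list the genes with the 2 largest rises or falls in the comparisons described, and for Hspa5 and Ddit3 the 5 nearest profiles. Manf, Pdia6, Dnajc3 and the other genes with a promoter element were named after their values were seen. One gene that this rule names is not reported here. Exons of 4 members (Ddit3, Dnajb9, Hsp90b1, Pdia4) overlap other genes in GENCODE vM21, by at most 10.3% of their exonic bases, and strand use in counting is not given in the sources used here. Alternatives were pseudocounts of 0.1 and 0.01, no filter or an FPKM of at least 5, median-of-ratios scaling over 15507 genes, TPM with and without mitochondrially encoded, skeletal muscle and hair shaft genes, and the 1.5-fold threshold. Promoters are RefSeq sequences of GRCm38.p6. The steps were tested on simulated data. Python 3.11.15, numpy 2.4.6, pandas 2.3.3, scipy 1.17.1 and matplotlib 3.10.9 were used.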

Additional observations from a re-analysis of the deposited data

Results flagged for a closer look

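For 2 of the 10 genes the age difference had opposite directions in telogen and anagen, with at least 0.2 in size in each phase. The share of all genes tested that meet this rule was not counted, so the count of 2 has no background. Sdf2l1 was higher in OTD than in YTD (0.53) and lower in OAD than in YAD (-0.21), so its age change in anagen minus that in telogen was -0.74. Ddit3 was lower in OTD than in YTD (-0.71) and higher in OAD than in YAD (0.28), and the same difference was 0.99. Both differences rest on single libraries and were not tested. The value of Ddit3 uses all 4 libraries, of which YTD stood apart at 31.0 FPKM against 15.8 to 19.4 in the others. For both genes the counting interval of the anagen ratio includes equal levels, 0.729 to 1.01 for Sdf2l1 and 0.988 to 1.52 for Ddit3. Pdia4 also had opposite directions (0.31 in telogen and -0.16 in anagen) but fell short of 0.2 in anagen. Its counting intervals left out equal levels in telogen (1.11 to 1.45) and in anagen (0.833 to 0.953). Under each of the 9 ways of scaling and filtering, the old library exceeded the young one for Sdf2l1 in telogen and Ddit3 in anagen. Under each of them it lay below the young one for Sdf2l1 in anagen and for Ddit3 in telogen. Only the median-of-ratios and TPM settings could have turned a direction. The size of 0.2 was not always kept in anagen. Ddit3 fell to 0.059 on the TPM scale and to 0.12 without mitochondrially encoded genes. With skeletal muscle and hair shaft genes also left out it was 0.16. Sdf2l1 was -0.19 with median-of-ratios scaling.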

How the results depend on the processing

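Pseudocounts, filters and median-of-ratios scaling moved no median of the 10 genes by over 0.1 and no count of genes past 1. Rescaling to TPM moved the median change to 1.67 in YAD against YTD and 1.40 in OAD against OTD, with 0 genes lower by 1 in either, and to -0.18 in OAD against YAD. Without mitochondrially encoded genes the medians were 1.05 in YAD against YTD, 0.66 in OAD against OTD, -0.12 in OAD against YAD and 0.31 in OTD against YTD, and with skeletal muscle and hair shaft genes also left out 1.04 in YAD against YTD, -0.079 in OAD against YAD and 0.24 in OTD against YTD, each with 1 gene lower by 1 in YAD against YTD. At 1.5-fold, 1 gene, Ddit3, passed in OTD against YTD, and it was lower. On the TPM scale Xbp1 turned to 0.64 in YAD against YTD and 0.33 in OAD against OTD, and the medians of ER-associated degradation (0.69) and of mitochondrial chaperones and proteases (0.57) turned in YAD against YTD. The median of ER-associated degradation in OTD against YTD turned to 0.10 without mitochondrially encoded genes. TPM also moved the median of all genes tested to 0.73 in YAD against YTD, 0.56 in OAD against OTD and -0.20 in OAD against YAD. Relative to it the median of the 10 genes was 0.95, 0.84 and 0.02. Leaving out replicates was not possible with 1 library per group, and depth limits Sdf2l1 and Ddit3 most.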
